A study of Mus musculus with 9 samples.

Results

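The genes described here are 8 transcripts of corticosteroid signalling in the mouse substantia nigra: the corticosteroid receptor genes Nr3c1 and Nr3c2, the receptor regulators Fkbp4, Ncoa1 and Hsd11b1, and the glucocorticoid targets Fkbp5, Tsc22d3 and Zbtb16. They were chosen by symbol from a table of 20591 genes, and all 8 were present and passed the filter on low counts, which left 20535 genes. The substantia nigra is a midbrain nucleus whose dopaminergic neurons are lost in Parkinson's disease. RNA-seq was made from lysate of this region in C57BL/6 mice labelled as sham operated, randomised at 12 weeks of age. The 1 week group went through intermittent fasting with 3 fasts of 24 hours on alternate days, the 1 day group was fasted for 1 day, and the ad libitum group had food throughout for 1 week, with 3 libraries in each group. Fasts began 2 hours before lights off, and fed mice changed cages on the same schedule. The sources used here do not give the time between the last fast and sampling. They also do not state that each library is a separate animal, so p-values measure the spread between libraries, part of which may be technical. The tissue was lysed whole, so fewer cells of a type and less RNA per cell cannot be told apart.

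Corticosterone, the main glucocorticoid of mice, binds the glucocorticoid receptor (Nr3c1) and, with higher affinity, the mineralocorticoid receptor (Nr3c2). Both receptors rest in the cytoplasm with the chaperone HSP90 and its co-chaperones, among them the immunophilins FKBP51 (Fkbp5) and FKBP52 (Fkbp4), which have opposing effects on the glucocorticoid receptor. The hormone-bound receptor enters the nucleus and binds response elements, where it recruits coactivators such as NCOA1. Fkbp5 is itself induced by the receptor and lowers its hormone affinity, which forms an intracellular feedback loop. The hormone rises with fasting in rodents and reaches the brain from the blood.

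In these libraries the 3 target genes were higher in both fasted groups, and the receptor and other regulator genes had log2 fold changes between -0.34 and 0.26 against ad libitum feeding, none past the test. Zbtb16 rose 5.56-fold after 1 week against ad libitum feeding, and was the 1 gene of the 8 to pass edgeR's test over all genes. Fkbp5 (3.74-fold) and Tsc22d3 (1.68-fold) were above every ad libitum library after 1 week and missed the threshold of 0.05 narrowly. Of 17 alternative analyses of that comparison, Fkbp5 passed in 4 and Tsc22d3 in 5. After 1 day the same 3 genes were above every ad libitum library, at 2.20-fold, 1.65-fold and 1.44-fold for Zbtb16, Fkbp5 and Tsc22d3, and none passed. Of all genes tested, 10.9% were above every ad libitum library after 1 week and 8.17% after 1 day.

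Promoters are shown for 2 of the targets and for Sgk1, a kinase gene and classical receptor target, since glucocorticoid response elements can lie next to a start site. Sequences are the 250 bases before the annotated start, 5′ to 3′ in the direction of transcription, from RefSeq on build GRCm38.p6. Capitals mark the hexamer TGTTCT, the core of a response element, or the palindrome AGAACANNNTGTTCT, searched on both strands. The palindrome is made of 2 such hexamers facing each other, so the motifs overlap.
Sgk1, chr10:21993640-21993889, plus strand: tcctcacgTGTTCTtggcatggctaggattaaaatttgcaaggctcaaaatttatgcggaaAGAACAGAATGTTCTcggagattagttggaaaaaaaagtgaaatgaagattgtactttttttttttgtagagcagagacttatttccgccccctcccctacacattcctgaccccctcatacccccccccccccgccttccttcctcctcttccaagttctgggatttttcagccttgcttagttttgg
Tsc22d3, chrX:140600523-140600772, minus strand: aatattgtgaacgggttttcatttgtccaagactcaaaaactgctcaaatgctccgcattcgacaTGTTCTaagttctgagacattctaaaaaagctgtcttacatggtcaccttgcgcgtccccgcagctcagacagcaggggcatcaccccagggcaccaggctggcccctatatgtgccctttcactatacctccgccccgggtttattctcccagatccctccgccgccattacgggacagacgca
Fkbp5, chr17:28486150-28486399, minus strand: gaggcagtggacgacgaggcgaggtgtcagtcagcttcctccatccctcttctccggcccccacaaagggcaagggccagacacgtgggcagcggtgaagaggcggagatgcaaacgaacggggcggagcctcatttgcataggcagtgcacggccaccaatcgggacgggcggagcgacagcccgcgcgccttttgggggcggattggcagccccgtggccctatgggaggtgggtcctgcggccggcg
The Sgk1 window held 3 hexamers, beginning 242, 189 and 180 bases before the start, and the last 2 of these form a palindrome. The Tsc22d3 window, at 1 of this gene's 3 annotated starts, held 1 hexamer beginning 185 bases before the start. The windows at its other starts held none and are not shown. The Fkbp5 window, 68.0% G and C against a median of 52.4% in all promoters, held no match, which says only that these letters are not in this window. RefSeq starts were matched for 6 of the 8 genes, with 8 starts in all, of which 1 held the hexamer and 0 the palindrome. In the list of 30 glucocorticoid-induced genes that Sgk1 comes from, 25 genes with 36 starts were matched, and 7 of these starts, in 4 genes, held the hexamer and 1, that of Sgk1, the palindrome. Among all 32851 promoter windows of this length, 16.1% held the hexamer and 0.00913% (3 windows) the palindrome. The Sgk1 window was picked from the list because it holds the palindrome, so its match is no independent finding. A match is a description and no evidence of binding.

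Sequencing gave 36109995 to 54248856 counts per library, and each of the 8 genes had at least 350 counts in every library. Levels are CPM, counts put on a common depth scale with TMM factors. Th, the rate-limiting enzyme of dopamine synthesis, averaged 208 ± 89.2 CPM after 1 week, 109 ± 46.4 CPM after 1 day and 181 ± 23.9 CPM in ad libitum libraries, and Slc6a3, the dopamine transporter, averaged 412 ± 136 CPM after 1 week, 276 ± 80.9 CPM after 1 day and 388 ± 52.8 CPM in ad libitum libraries (SD, n = 3). The 8 dopaminergic markers summed to 1100 to 1720 CPM after 1 week and 692 to 1450 CPM after 1 day. In ad libitum libraries they summed to 1060 to 1400 CPM, and all 3 groups overlapped. For 1 day against ad libitum 3 of the 8 had a positive log2 fold change and 5 a negative one, none past the test. None of the 70 marker genes of 11 cell types and tissues was at 0. Replicate 3 of the 1 week group carried the most cortex and hippocampus marker RNA, with a summed level of 559 CPM against 18.1 and 47.6 CPM in the other 1 week libraries, 10.8 to 14.4 CPM in 1 day libraries and 39.9 to 65.3 CPM in ad libitum libraries. Slc17a7, a glutamate transporter of cortical neurons, made up 501 CPM of it. Summed blood markers were also highest there, at 1506 CPM, and Ttr, the main choroid plexus transcript, reached 335 CPM in 1 ad libitum library. Replicate 2 of the 1 week group and replicate 2 of the 1 day group stood apart from their groups, with quality weights of 0.507 and 0.213 against 0.972 to 1.93 in the other 7.

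**Figure D1:**
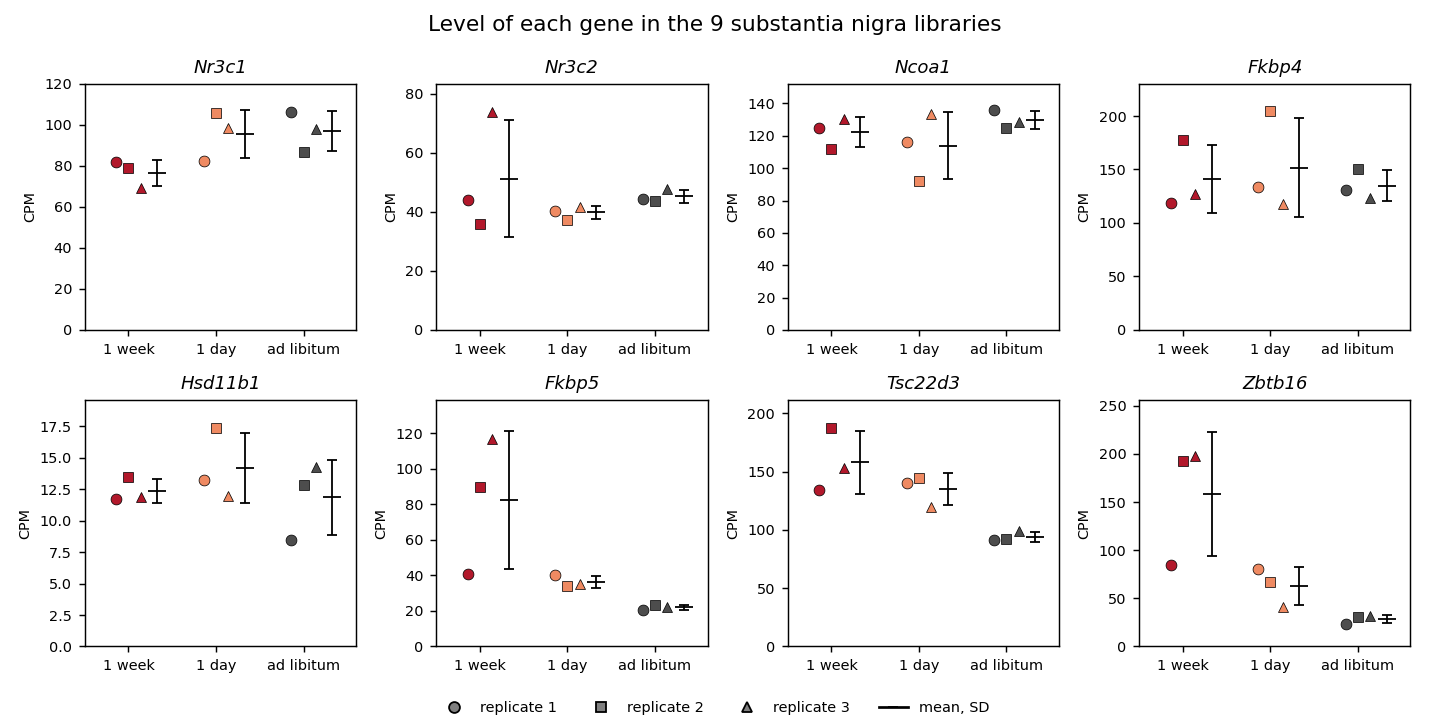
Levels of the 8 genes in CPM (vertical axes, each from 0) in the 1 week, 1 day and ad libitum libraries, with 1 point per library, its shape giving the replicate number, and a bar for the mean and SD of 3 libraries. The target genes Fkbp5, Tsc22d3 and Zbtb16 lie above the ad libitum points in both fasted groups, and Nr3c2 has its highest point, 73.8 CPM, in 1 week replicate 3.

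The receptor genes came first, since the response to the hormone depends on them. Nr3c1 (ENSMUSG00000024431) was at 81.7, 78.7 and 69.1 CPM in 1 week replicates 1, 2 and 3, at 82.5, 106 and 98.2 CPM after 1 day, and at 106, 86.9 and 97.8 CPM in ad libitum libraries. All 3 of the 1 week libraries lay below every 1 day and every ad libitum library, while the 1 day and ad libitum libraries overlapped. The highest 1 week library, at 81.7 CPM, was only slightly below the lowest 1 day library, at 82.5 CPM. Of all genes, 11.5% lay wholly below ad libitum after 1 week, and 3.28% lay wholly below 1 day. The log2 fold change was -0.34 for 1 week against ad libitum (95% interval -0.62 to -0.07, edgeR adjusted p = 0.335) and -0.32 for 1 week against 1 day (-0.60 to -0.04, adjusted p = 0.853). Neither passed. The unadjusted p values were 0.0201 and 0.0275, and 2305 and 1071 of all 20535 genes had one below 0.05 in these comparisons. For 1 day against ad libitum it was -0.02 (-0.30 to 0.25, adjusted p = 0.958).

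Nr3c2 (ENSMUSG00000031618) was at 44.1, 36.0 and 73.8 CPM after 1 week, at 40.4, 37.3 and 41.7 CPM after 1 day, and at 44.4, 43.8 and 47.9 CPM in ad libitum libraries. The 1 day libraries all lay below the ad libitum ones, by a log2 fold change of -0.19 (95% interval -0.67 to 0.30, edgeR adjusted p = 0.752). Of all genes, 10.3% lay wholly below in that comparison. The 1 week group spread on both sides of the ad libitum values. Its log2 fold change was 0.18 against ad libitum (-0.31 to 0.66, adjusted p = 0.816) and -0.18 without replicate 3, so 1 library set its sign. That library is the one with the cortex and hippocampus marker sum of 559 CPM, and the part of that tissue in the Nr3c2 value was not tested. Nr3c2 is abundant in the hippocampus. Exons of Nr3c2 overlap an unnamed gene model on the opposite strand. Exons of Ncoa1 likewise overlap an antisense gene. The kit keeps strand, but the sources used here do not give the strand setting of the counting, so such reads may not be told apart.

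The balance of the receptor transcripts was read as the ratio of Nr3c2 to Nr3c1 counts within a library, which needs no scaling between libraries. The ratio was 0.540, 0.457 and 1.07 after 1 week, 0.490, 0.353 and 0.425 after 1 day, and 0.418, 0.504 and 0.489 in ad libitum libraries. All 3 groups overlapped. The ratio was 1.37-fold higher after 1 week than in ad libitum libraries (two-sided exact permutation p = 0.4), a log2 difference of 0.45 that came to 0.08 without 1 week replicate 3. It was 1.53-fold higher after 1 week than after 1 day (exact p = 0.2, log2 difference 0.61, and 0.25 without that library). After 1 day the ratio was 0.893 of its ad libitum value (exact p = 0.5). With 3 libraries a group the smallest p possible is 0.1, so a test of this kind cannot reach the threshold.

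For the regulators Ncoa1, Fkbp4 and Hsd11b1 no difference between groups exceeded the spread between libraries. Ncoa1 (ENSMUSG00000020647), the coactivator also called SRC-1, was at 125, 112 and 130 CPM after 1 week, at 116, 91.9 and 134 CPM after 1 day, and at 136, 125 and 128 CPM in ad libitum libraries. Its log2 fold changes against ad libitum were -0.09 after 1 week (95% interval -0.39 to 0.21) and -0.19 after 1 day (-0.49 to 0.11), with edgeR adjusted p of 0.861 and 0.618. Groups overlapped, and the lowest value was that of 1 day replicate 2.

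Fkbp4 (ENSMUSG00000030357), the co-chaperone that favours receptor transport to the nucleus, was at 118, 177 and 127 CPM after 1 week, at 134, 204 and 118 CPM after 1 day, and at 131, 151 and 123 CPM in ad libitum libraries. Replicate 2 was the highest library of each group. The log2 fold change was 0.06 after 1 week (95% interval -0.42 to 0.54) and 0.17 after 1 day (-0.31 to 0.65), each against ad libitum, with edgeR adjusted p of 0.944 and 0.775. Both signs turned without the replicate 2 library of the fasted group, to -0.13 and -0.10.

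Hsd11b1 (ENSMUSG00000016194), the enzyme that regenerates active corticosterone from its inert form inside cells, was the least abundant of the 8 by CPM. It was at 11.8, 13.4 and 11.9 CPM after 1 week, at 13.3, 17.4 and 11.9 CPM after 1 day, and at 8.48, 12.9 and 14.2 CPM in ad libitum libraries. The groups overlapped in every comparison. The log2 fold change was 0.06 after 1 week (95% interval -0.39 to 0.51, edgeR adjusted p = 0.941) and 0.26 after 1 day (-0.19 to 0.71, adjusted p = 0.649), both against ad libitum. For Ncoa1, Fkbp4 and Hsd11b1 the intervals against ad libitum reach at most 0.54 on the log2 scale after 1 week (Fkbp4). After 1 day they reach at most 0.71 (Hsd11b1).

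The receptor targets had the highest fold changes of the 8 genes against ad libitum feeding. Zbtb16 (ENSMUSG00000066687), a zinc finger transcription factor also known as PLZF, was at 84.6, 193 and 198 CPM after 1 week, at 80.3, 66.5 and 40.9 CPM after 1 day, and at 23.2, 30.4 and 31.9 CPM in ad libitum libraries. The 3 groups did not overlap, with every 1 week library above every 1 day library and every 1 day library above every ad libitum library. Replicate 1 of the 1 week group lay close to the highest 1 day library, and the other 1 week libraries far above it. Against the ad libitum mean the 1 week libraries stood at 2.97-fold, 6.77-fold and 6.95-fold and the 1 day libraries at 2.82-fold, 2.33-fold and 1.44-fold.

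Zbtb16 rose after 1 week against ad libitum by 2.48 on the log2 scale (SE 0.36, 95% interval 1.67 to 3.28, edgeR adjusted p = 0.0329), which ranked 43 of all genes by p. After 1 day against ad libitum the log2 fold change was 1.14 (SE 0.34, 0.36 to 1.91, adjusted p = 0.433). Between 1 week and 1 day it was 1.34, a 2.53-fold difference (SE 0.34, 0.56 to 2.12), ranked 40 by p, with an adjusted p of 0.853. The 1 week change ranged between 2.20 and 2.78 over 17 alternative analyses, of which 7 passed. Leaving out 1 week replicate 1 lowered the adjusted p to 0.00361. Leaving out 1 week replicate 2 gave 0.135 and replicate 3, the library with the most cortex marker RNA, 0.107, with a log2 fold change of 2.29. Leaving out 1 of the ad libitum libraries gave 0.171 to 0.193, leaving out 1 day replicate 1 gave 0.0595 and replicate 2 gave 0.0777, and leaving out both libraries that stood apart gave 0.162.

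Fkbp5 (ENSMUSG00000024222), the feedback co-chaperone, was at 40.7, 89.4 and 117 CPM after 1 week, at 40.0, 33.8 and 34.9 CPM after 1 day, and at 20.5, 23.1 and 22.4 CPM in ad libitum libraries. The groups did not overlap in any of the 3 comparisons, but 1 week replicate 1 exceeded the highest 1 day library only slightly. The 1 week libraries were spread widely, averaging 82.3 ± 38.5 CPM, while the 1 day libraries averaged 36.2 ± 3.31 CPM and the ad libitum libraries 22.0 ± 1.33 CPM (SD, n = 3 each). The log2 fold change for 1 week against ad libitum was 1.90 (SE 0.31, 95% interval 1.20 to 2.61, edgeR adjusted p = 0.05004). It was 0.72 for 1 day against ad libitum (SE 0.31, 0.03 to 1.41, adjusted p = 0.532) and 1.18, or 2.27-fold, for 1 week against 1 day (SE 0.31, 0.50 to 1.87, adjusted p = 0.853). Fkbp5 passed after 1 week in 4 of 17 alternatives, among them DESeq2 (adjusted p = 1.12e-07), and its log2 fold change stayed between 1.57 and 2.23, the lower value being that without 1 week replicate 3. The highest adjusted p among the alternatives was 0.253, and of the 9 fits without 1 library, 1 passed.

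Tsc22d3 (ENSMUSG00000031431), which encodes GILZ, a leucine zipper protein that carries part of the anti-inflammatory action of glucocorticoids, was at 134, 187 and 153 CPM after 1 week, at 141, 145 and 120 CPM after 1 day, and at 91.1, 91.9 and 99.2 CPM in ad libitum libraries. Both fasted groups lay above all ad libitum libraries and overlapped each other. The log2 fold change was 0.75 for 1 week against ad libitum (SE 0.13, 95% interval 0.45 to 1.04, edgeR adjusted p = 0.0548) and 0.52 for 1 day against ad libitum (SE 0.13, 0.23 to 0.82, adjusted p = 0.325). For 1 week against 1 day it was 0.23 (-0.07 to 0.52, adjusted p = 0.853). Tsc22d3 passed after 1 week in 5 of 17 alternatives, with log2 fold changes between 0.62 and 0.85. Its highest adjusted p among the alternatives was 0.29, and of the 9 fits without 1 library, 2 passed.

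**Figure D2:**
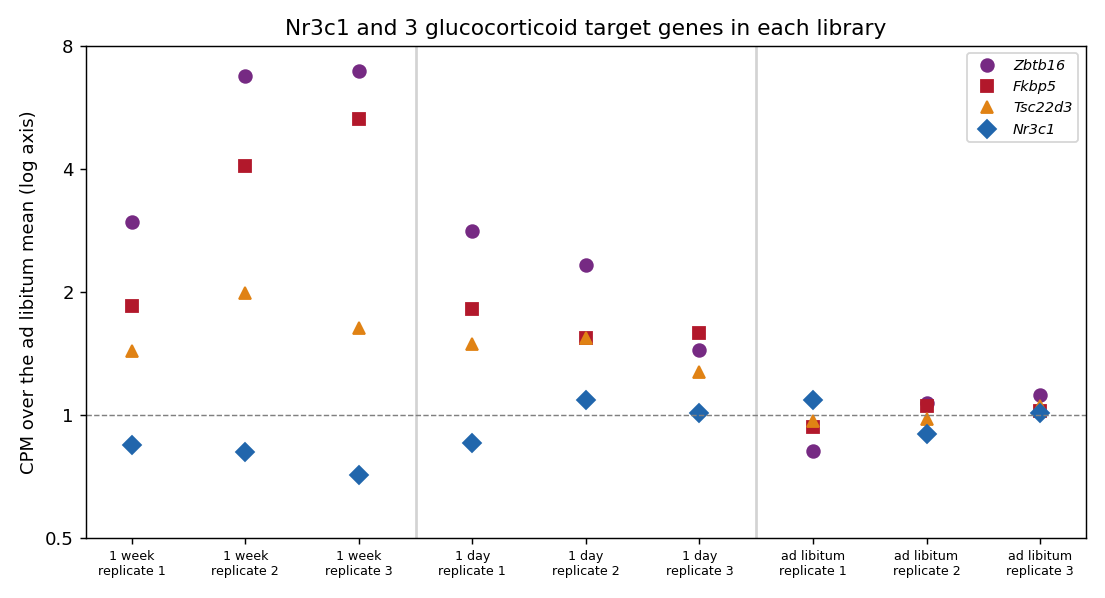
CPM of Zbtb16, Fkbp5, Tsc22d3 and Nr3c1 in each of the 9 libraries, divided by the gene's ad libitum mean (log axis, dashed line at 1). In 1 week replicates 2 and 3 Zbtb16 is at 6.77-fold and 6.95-fold and Fkbp5 at 4.07-fold and 5.31-fold, while in 1 week replicate 1 they are at 2.97-fold and 1.85-fold, near 1 day replicate 1 at 2.82-fold and 1.82-fold.

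For all 3 targets the mean was highest after 1 week, lower after 1 day and lowest in ad libitum libraries. Fkbp5 and Zbtb16 were higher in every 1 week than in every 1 day library, whereas Tsc22d3 reached 1.43-fold to 1.99-fold of its ad libitum mean after 1 week and 1.27-fold to 1.54-fold after 1 day. Whether the 3 genes differ from each other in this was not tested. Summed blood markers in 1 week libraries were 498 to 1510 CPM, in 1 day libraries 282 to 329 CPM and in ad libitum libraries 446 to 483 CPM. They did not overlap between the groups. Cortex and hippocampus markers summed to 18.1 to 559 CPM after 1 week, 10.8 to 14.4 CPM after 1 day and 39.9 to 65.3 CPM in ad libitum libraries, with every 1 day library below every other library. Oligodendrocyte markers summed to 10500 to 12000 CPM after 1 week, 9930 to 11800 CPM after 1 day and 11900 to 14500 CPM in ad libitum libraries, and 2 of the 8, Trf and Ugt8a, fell after 1 week. Microglia markers summed to 190 to 299 CPM after 1 week, 214 to 247 CPM after 1 day and 296 to 324 CPM in ad libitum libraries. Summed astrocyte markers overlapped between groups, at 5040 to 5360 CPM after 1 week, 4830 to 5550 CPM after 1 day and 4840 to 5070 CPM in ad libitum libraries. Endothelial markers overlapped too, at 223 to 288 CPM after 1 week, 244 to 252 CPM after 1 day and 248 to 299 CPM in ad libitum libraries. The part of cell composition in the target changes was not tested.

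Counted over the set, 1 of the 8 genes passed edgeR's test for 1 week against ad libitum, where 0.307% of all genes tested passed. For 1 day against ad libitum 0 of 8 passed, where 0.0584% of all genes (12) passed. Before adjustment 4 of the 8 had a p below 0.05 for 1 week against ad libitum, where 2305 of all 20535 genes did, and 3 of the 8 for 1 day against ad libitum, where 1904 did. For 1 day against ad libitum DESeq2 called 2 of the 8, Tsc22d3 (adjusted p = 0.0491) and Zbtb16 (0.0458). The shares of all genes above are edgeR's, and DESeq2's own share is not given here, so this count cannot be set against them. For 1 week against 1 day 0 of 8 passed in edgeR, with 3 at an unadjusted p below 0.05, and 0% of all genes passed. In that comparison 1071 genes had an unadjusted p below 0.05, and DESeq2 called 3 genes, none of the 8. Beyond Zbtb16 the members are thus described by their values and not as changed.

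The groups did not overlap for Zbtb16, Fkbp5 and Tsc22d3 on the higher side after 1 week (3 of 8, against 10.9% of all genes) and for Nr3c1 on the lower side (1 of 8, against 11.5%). After 1 day against ad libitum the same 3 genes did not overlap on the higher side (background 8.17%) and Nr3c2 on the lower side (background 10.3%). For 1 week against 1 day Fkbp5 and Zbtb16 did not overlap on the higher side (2 of 8, background 4.5%) and Nr3c1 on the lower side (1 of 8, background 3.28%). The counts of 1 of 8 on the lower side against ad libitum are near the background. The comparisons against ad libitum share their ad libitum libraries, so they are not independent of each other. The median log2 fold change of the 8 genes was 0.12 after 1 week and 0.21 after 1 day, against -0.00129 and 0.000415 for all genes.

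**Figure D3:**
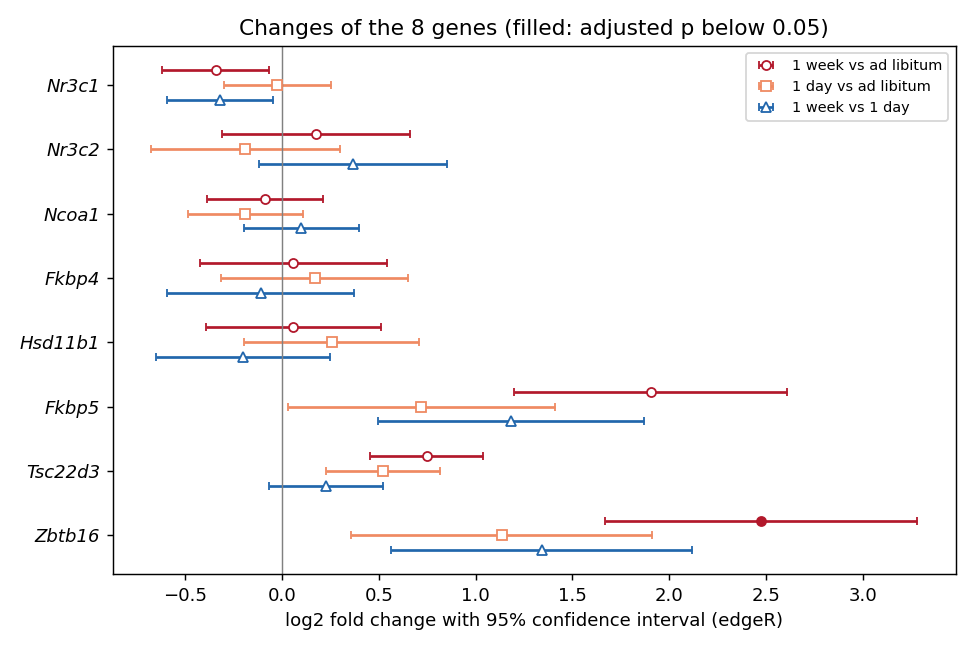
Log2 fold changes of the 8 genes from edgeR with 95% confidence intervals (horizontal axis) for 1 week against ad libitum, 1 day against ad libitum and 1 week against 1 day, with filled symbols where the adjusted p was below 0.05. Zbtb16 after 1 week, at 2.48, is the 1 filled symbol, and the intervals of Nr3c2, Ncoa1, Fkbp4 and Hsd11b1 include 0 in all 3 comparisons.

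FKBP51 and FKBP52 share a place in the receptor complex, so the ratio of their transcripts was taken within each library. Fkbp5 counts over Fkbp4 counts were 0.344, 0.505 and 0.922 after 1 week, 0.300, 0.165 and 0.297 after 1 day, and 0.157, 0.153 and 0.181 in ad libitum libraries. Every 1 week library was above every other library. The ratio was 3.33-fold higher after 1 week than in ad libitum libraries and 2.22-fold higher after 1 week than after 1 day, each with a two-sided exact permutation p of 0.1, the smallest that 3 against 3 libraries allows. After 1 day the ratio was 1.5-fold that of ad libitum libraries (exact p = 0.2), and the groups overlapped through 1 day replicate 2, the library with the highest Fkbp4. In log2 terms the 1 week difference from ad libitum was 1.73, and 1.35 without 1 week replicate 3.

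**Figure D4:**
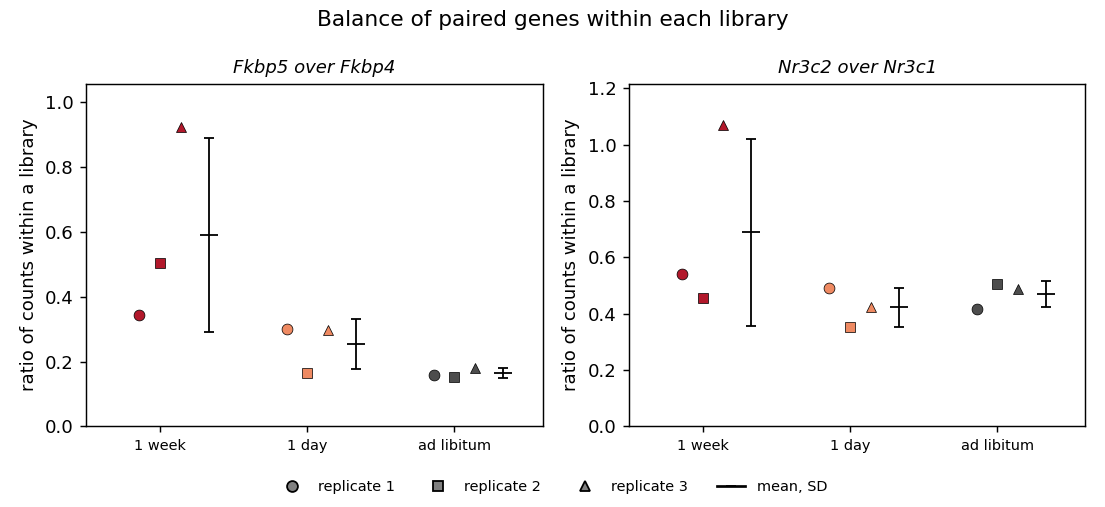
Ratio of Fkbp5 to Fkbp4 counts (left) and of Nr3c2 to Nr3c1 counts (right) within each library (vertical axes from 0), with 1 point per library and the mean and SD of 3 libraries. The Fkbp5 over Fkbp4 ratio is 0.344 to 0.922 in 1 week libraries, above all others, while the Nr3c2 over Nr3c1 ratio overlaps between groups apart from 1 week replicate 3 at 1.07.

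Levels between genes were compared as CPM per kilobase of the longest coding transcript in GENCODE M21, as mean and SD of 3 libraries. After 1 week Tsc22d3 was highest per kilobase at 80.1 ± 13.6, overlapping Fkbp4 at 63.5 ± 14.4. Zbtb16 came next at 31.0 ± 12.5, followed by Fkbp5 at 21.3 ± 9.99 and Ncoa1 at 16.7 ± 1.27, and these 3 overlapped. Nr3c1 (11.9 ± 1.02), Nr3c2 (8.67 ± 3.36) and Hsd11b1 (7.61 ± 0.58) came last, each overlapping the next. After 1 day the levels per kilobase were 68.5 ± 20.8 for Fkbp4 and 68.4 ± 6.88 for Tsc22d3, which overlapped, then 15.6 ± 2.86 for Ncoa1, 14.8 ± 1.83 for Nr3c1 and 12.2 ± 3.91 for Zbtb16, which overlapped with each other. Fkbp5 (9.39 ± 0.86) and Hsd11b1 (8.74 ± 1.74) followed and overlapped, and Nr3c2 was lowest at 6.73 ± 0.39.

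In ad libitum libraries Fkbp4 (60.9 ± 6.41) and Tsc22d3 (47.6 ± 2.27) were the most abundant per kilobase, followed by Ncoa1 (17.7 ± 0.78) and Nr3c1 (15.1 ± 1.5), none of them overlapping. Below them came Nr3c2 (7.67 ± 0.37), Hsd11b1 (7.30 ± 1.85), Fkbp5 (5.70 ± 0.35) and Zbtb16 (5.57 ± 0.91), each overlapping the next. The order depends on the transcript length used: with the median coding length, Fkbp4 was first in all 3 groups, Zbtb16 ranked 4 after 1 week, 5 after 1 day and 7 in ad libitum libraries, and Fkbp5 ranked 6 after 1 week and 8 after 1 day and in ad libitum libraries.

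Among the 8 genes Zbtb16 and Fkbp5 varied most over the 9 libraries, with an SD of log2 CPM of 1.13 and 0.87, and Ncoa1 (0.17) and Nr3c1 (0.21) varied least. Likeness of pattern was measured as the root mean square difference of centred log2 CPM over the 9 libraries, among 13840 named genes with a mean log2 CPM of 0 or more. The gene nearest to Zbtb16 was Fkbp5 (difference 0.348), followed by Maff (0.381). The genes nearest to Fkbp5 were Sgk3 (0.187) and Tma16 (0.328), and those nearest to Tsc22d3 were Ptpn11 (0.0878) and Dbndd2 (0.0890). For the receptors they were Sdhaf3 (0.0582) and Dnajc15 (0.0646) for Nr3c1 and Itga4 (0.0673) and Gfod1 (0.0902) for Nr3c2. For the regulators they were Alyref2 (0.0444) and Cltb (0.0551) for Fkbp4, Scd3 (0.115) and Tuft1 (0.128) for Hsd11b1, and Zfp384 (0.0476) and Dip2c (0.0496) for Ncoa1. A gene that varies little has many near neighbours, so small differences for Nr3c1, Fkbp4 and Ncoa1 say little about a shared pattern.

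Other genes that glucocorticoids induce were taken as a list of 30, all of them measured. After 1 week 15 rose and 0 fell against ad libitum, with a median log2 fold change of 1.08, and 15 did not pass, where 0.307% of all genes passed. After 1 day 5 rose and 0 fell, with a median of 0.66, and 25 did not pass, where 0.0584% of all genes passed. The list was chosen with results of these libraries known, so its counts are a description. Sgk1, the kinase gene whose promoter is shown above, was at 287, 255 and 311 CPM after 1 week, at 256, 153 and 239 CPM after 1 day, and at 51.9, 40.7 and 49.9 CPM in ad libitum libraries. It rose in both comparisons (log2 fold change 2.58, edgeR adjusted p = 0.00154 after 1 week; 2.19, adjusted p = 0.00468 after 1 day).

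Of the other list members that passed in both, Plin4, a coat protein of lipid droplets, rose by 3.53 on the log2 scale after 1 week and 2.66 after 1 day, Arl4d, a small GTPase, by 2.11 and 1.88, Arrdc2, an arrestin family member, by 2.03 and 1.56, and Ddit4, an inhibitor of mTORC1, by 1.78 and 1.36. Mertk, a receptor tyrosine kinase of phagocytes, rose by 1.08 after 1 week. Between 1 week and 1 day 0 of the 30 passed, and the smallest p belonged to Mertk (log2 fold change 0.46) and Hif3a (1.06), each with an adjusted p of 0.853. The groups of 24 list members did not overlap on the higher side after 1 week, those of 18 after 1 day, and those of 5 between 1 week and 1 day, where 10.9%, 8.17% and 4.5% of all genes did not overlap on that side in the same comparisons. The counts of calls depended on the libraries: without ad libitum replicates 1, 2 and 3 they were 4, 6 and 3 after 1 week and 0 each after 1 day, without 1 week replicate 2 or 3 there were 9 after 1 week, and without 1 day replicate 1 or 3 there were 2 after 1 day. The shares of all genes above are for all 9 libraries, so these reduced counts have no share beside them.

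No gene of the machinery around the receptor passed in any comparison. Of all genes 0.307% passed after 1 week, 0.0584% after 1 day and 0% between 1 week and 1 day. For lists of this size 0 calls is near that share and says little about the machinery. Of 18 chaperones and co-chaperones of the receptor 0 passed, with a median log2 fold change of -0.10 after 1 week and -0.02 after 1 day. The smallest p after 1 week belonged to the HSP110 gene Hsph1 (-0.53, edgeR adjusted p = 0.307) and to Stip1, which links HSP70 to HSP90 (-0.31, adjusted p = 0.339). After 1 day they belonged to Hspa1a (-0.53, adjusted p = 0.544), whose counts are uncertain because Hspa1b is nearly identical, and the HSP40 gene Dnajb1 (0.17, adjusted p = 0.570). Between 1 week and 1 day they were Hsph1 (-0.36) and Dnajb1 (-0.18), each with an adjusted p of 0.853.

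Of 12 measured FK506-binding protein genes other than Fkbp4 and Fkbp5, 0 passed, with medians of 0.15 after 1 week and 0.10 after 1 day, each on the log2 scale against ad libitum. Fkbp14 (0.21) and Fkbpl (0.40) had the smallest p after 1 week and Fkbpl (0.54) and Fkbp1b (-0.30) after 1 day, with adjusted p from 0.518 to 0.583. Between 1 week and 1 day they were Fkbp10 (0.42) and Fkbp7 (0.49), at an adjusted p of 0.853. Of 13 coregulators other than Ncoa1, 0 passed. Their log2 fold changes were negative for 13 of 13 after 1 week and 12 of 13 after 1 day, with medians of -0.10 and -0.20. Of all 20535 genes 10312 and 10250 were negative. Both comparisons share the ad libitum libraries, so the counts are not independent, and a joint fall was not tested. The smallest p belonged to Med14 (-0.43, adjusted p = 0.341) and the chromatin remodeller Smarca4 (-0.21, adjusted p = 0.414) after 1 week. After 1 day it belonged to Smarca4 (-0.20, adjusted p = 0.542) and Ncoa3 (-0.33, adjusted p = 0.544). Between 1 week and 1 day they were Ncoa3 (0.20) and Ppargc1a (-0.12), each with an adjusted p of 0.854.

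The remaining steroid receptors and the hormone axis had no calls either, again near the share of all genes. Of 7 other NR3 nuclear receptors 0 passed, with Esr1 (-0.38) and Esrra (0.13) smallest in p after 1 week, Esrrb (-0.52) and Pgr (0.20) after 1 day, and Esr1 (-0.60) between 1 week and 1 day. Of 5 measured genes of corticosteroid metabolism and transport 0 passed. Abcb1a, a drug efflux pump of the blood-brain barrier that exports steroids, had log2 fold changes of 0.23 after 1 week (edgeR adjusted p = 0.546) and 0.31 after 1 day (adjusted p = 0.525), H6pd, which feeds the HSD11B1 enzyme its cofactor, 0.24 after 1 week (adjusted p = 0.587) and 0.31 between 1 week and 1 day, Srd5a1 -0.25 after 1 day, and Akr1c14 -0.28 between 1 week and 1 day. Of 8 measured stress axis genes 0 passed, with Ucn (-2.26) and Crh (-0.37) smallest in p after 1 week, the CRH receptor genes Crhr2 (0.62) and Crhr1 (-0.59) after 1 day, and Crhr2 (-0.84) and Crhr1 (0.74) between 1 week and 1 day. The 1 week interval of Ucn was -6.07 to 1.55 (edgeR adjusted p = 0.672). Its libraries ranged from 0.0231 to 1.61 CPM after 1 week and from 0.121 to 5.81 CPM in ad libitum libraries. Crh and Crhr2 were low, averaging 1.06 and 1.01 CPM in ad libitum libraries. Tsc22d1 and Tsc22d2, relatives of Tsc22d3, were at 0.15 and 0.08 after 1 week, at 0.17 and 0.07 after 1 day, and at -0.01 and 0.01 between 1 week and 1 day. Hsd11b2, Fkbp6, Serpina6, Avp, Avpr1b, Mc2r and Tsc22d4 were not analysed here.

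**Figure D5:**
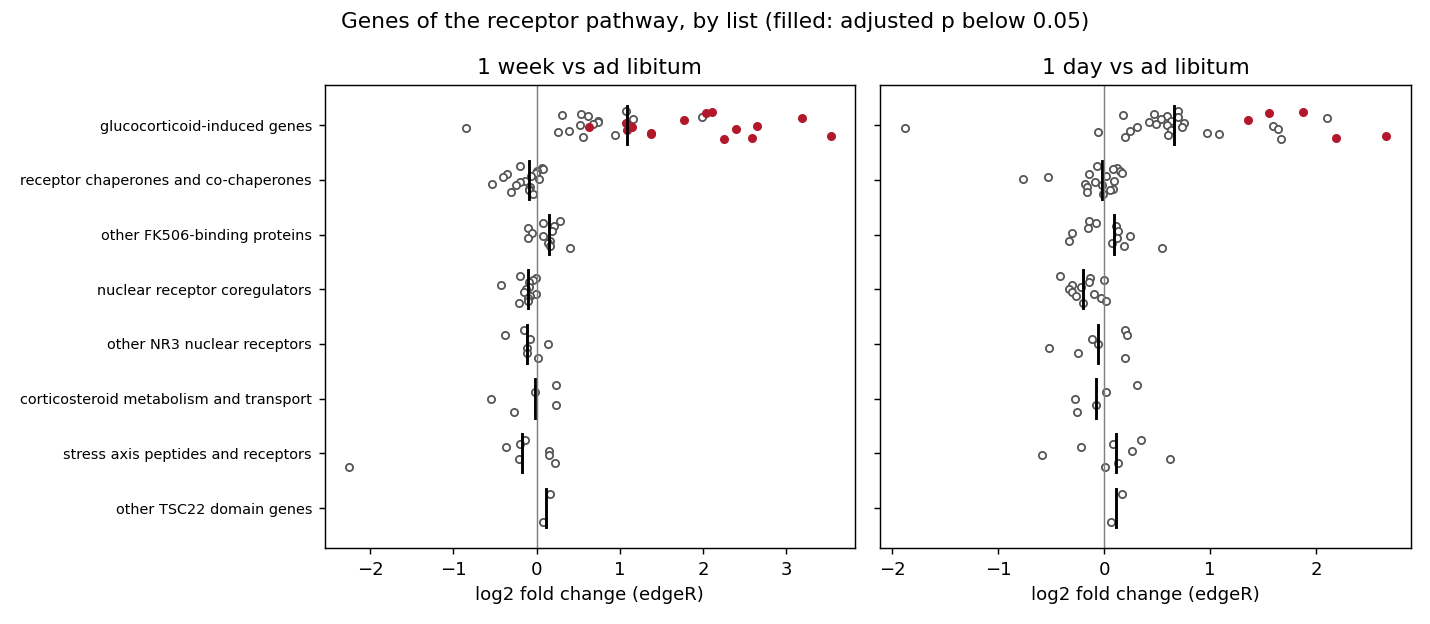
Log2 fold changes from edgeR (horizontal axes) of the genes in 8 lists around the receptors, for 1 week against ad libitum (left) and 1 day against ad libitum (right), with 1 point per gene, filled where the adjusted p was below 0.05, and a vertical bar at each list's median. Filled points occur in the glucocorticoid-induced list alone, 15 after 1 week and 5 after 1 day.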

How the data were processed

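PolyA RNA from substantia nigra lysate was made into directional libraries, per the labels' protocols. The submitters' processing notes name Salmon, DESeq2 1.40.2 and the builds GRCm39 and mm39. The sources used here do not give the annotation release, the step to genes or the row filter. The table deposited by the authors holds estimated counts per gene as whole numbers, not scaled to depth, with a lowest row mean of 9.89, and no rounding was needed.

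From these, edgeR 4.0.16 in R 4.3.3 was run with TMM scaling, filterByExpr (minimum count 10, minimum total 15, 56 rows removed) and a robust quasi-likelihood F test on all 9 libraries, two-sided, with Benjamini-Hochberg adjustment over 20535 genes and a threshold of 0.05. Folds, standard errors and intervals come from that fit. The step was also run on simulated data, and the outcome is not given here. CPM and log2 CPM (prior count 2) were computed from the deposited counts. Ratios of counts were compared by exact permutation of libraries. Alternatives were DESeq2 1.42.0, voom with quality weights (limma 3.58.1), RLE size factors, other filters, fewer libraries and the replicate number as a block. Every pair of libraries differed beyond sampling noise (lowest chi-square per gene 26.4).

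The 8 genes and all lists were chosen with earlier results of these data known. Genes named besides the 8 are up to 6 list members past the test by p, or the 2 with the smallest p where none passed, the 2 nearest genes in pattern, and the marker genes Th, Slc6a3, Slc17a7 and Ttr. Trf and Ugt8a were named after their values were seen. Of the genes this rule names, 1 is not reported here. Transcript lengths and overlaps come from GENCODE M21 (GRCm38), another build than the counts, by gene identifier, and promoters from RefSeq (GRCm38.p6), by symbol.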

Additional observations from a re-analysis of the deposited data

How the results depend on the processing

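Direction was kept in every alternative by Zbtb16, Fkbp5 and Tsc22d3, against ad libitum, and by the ratios. For 1 week against ad libitum the count of the 8 genes called was 1, and it was 3 with DESeq2, 2 with voom, 2 with RLE size factors, 2 with a filter of 1 CPM in at least 6 libraries, 0 with the replicate number as a block, 0 without both libraries that stood apart, and 0 to 3 leaving out 1 library. For 1 day against ad libitum it was 0, with DESeq2 calling 2, and for 1 week against 1 day it was 0, and 0 to 1 leaving out 1 library, the 1 being Fkbp5 without 1 week replicate 1 (adjusted p = 0.0142). The share of all genes called in each alternative is not given here, so these counts cannot be set against it. The cause of the differing counts was not tested.

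Signs also turned for 5 genes, and the cause was not tested. Fkbp4 was at -0.0372 after 1 week and -0.0242 after 1 day with voom, at -0.129 and -0.103 without both libraries that stood apart, at the same values without replicate 2 of its own group, and up to 0.331 after 1 day leaving out others. Between 1 week and 1 day it lay between -0.303 and 0.17 leaving out 1 library, positive without 1 week replicate 1 (0.00117) and 1 day replicate 2. Nr3c1 after 1 day lay between -0.101 and 0.0723, positive without 1 day replicate 1 and without ad libitum replicate 1 (0.0476). Leaving out 1 library, Nr3c2 after 1 week lay between -0.176 (without 1 week replicate 3) and 0.389, Hsd11b1 after 1 week between -0.132 (without ad libitum replicate 1) and 0.222, and Ncoa1 between 1 week and 1 day from -0.0253 (without 1 day replicate 2) to 0.233.

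Replicate numbers showed no pairing common to all libraries: deviations of same-numbered libraries correlated between -0.243 and 0.411. The highest value was that between replicate 2 of the 1 day and of the 1 week group, the libraries that stood apart. With the number as a block Zbtb16 after 1 week had an adjusted p of 0.125, and the glucocorticoid-induced list had 10 calls after 1 week and 2 after 1 day. In the blocked test of the ratios the exact p was 0.5 after 1 week and 0.75 after 1 day for Nr3c2 to Nr3c1, and 0.25 in both for Fkbp5 to Fkbp4. With the 6 libraries compared alone, Zbtb16 after 1 week had an adjusted p of 0.0617. DESeq2 and voom called 18 of the 30 listed genes after 1 week, and 14 and 12 after 1 day. The shares of all genes given above are edgeR's without a block, so these list counts have no share beside them. Each of the 8 genes had at least 350 counts per library, and the 3 libraries a group limit the precision.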
